A study of Mus musculus with 4 samples.

Results

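In a mouse that had received airway basal cells made from embryonic stem cells, 3436 tracheal cells were compared, 1585 GFP-positive cells derived from the donor and 1851 GFP-negative cells of the recipient itself. These are all barcodes of the 2 libraries of this recipient with at least 500 genes detected and at most 20% of UMIs from mitochondrially encoded genes, out of 1596 and 1891 deposited barcodes, and they are part of 6624 cells that passed the same limits in the 4 libraries of the study. Both libraries came from 1 adult wild type recipient of the strain labelled 129 X1/S1, which was given 2% polidocanol, a detergent that strips the airway lining, into the trachea and 5 hours later 6000000 murine iBCs, the name the study gives to its basal cells derived from embryonic stem cells. The trachea was taken 192 days after transplantation, digested with pronase and sorted by FACS into GFP-positive and GFP-negative cells within a Calcein Blue live gate. The comparison pair came from 1 C57BL/6 recipient that had the same injury, received primary basal cells and was studied at 69 days. Strain label, days, animal and kind of donor cell differed together between the 2 recipients and cannot be told apart. Each group is 1 library from 1 mouse, so no test between groups was possible, the values below have no replicate check, and all intervals are 95% intervals that cover counting error only.

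The surface of the mouse trachea is lined by basal cells, which lie on the basement membrane and act as stem cells, and by the secretory and ciliated cells that basal cells give rise to. Secretory cells make secretoglobins, mucins and antimicrobial proteins, and ciliated cells carry motile cilia built around a microtubule axoneme. After injury the remaining or the engrafted basal cells rebuild this lining, and donor cells in such a graft share the tissue with their GFP-negative neighbours.

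The reporter transcript followed the sort. The GFP-positive library held 1404 UMIs of the EGFP feature, 65.4 CPM (UMIs scaled to the same total per library or gate), in 48.3% of its cells (45.8% to 50.8%), and the GFP-negative library held 2 UMIs in 1 cell. In the primary recipient 98.9% of GFP-positive cells had an EGFP UMI, at 613.4 CPM, so the reporter level was lower in the iBC-derived cells. The libraries were deep and alike in total, with 21457172 UMIs in the donor-derived cells and 21651562 in the endogenous cells, and medians of 12033 and 9410 UMIs per cell. They shared 0 cell barcodes. Both libraries came from male cells by the Y-linked genes Ddx3y (46.7 CPM donor-derived, 36.5 CPM endogenous), Uty (17.8 and 19.3 CPM) and Eif2s3y (49.7 and 42.5 CPM).

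Cells were placed in 3 classes by marker genes: basal (Krt5, Trp63, Aqp3 and Dapl1), secretory (Scgb1a1, Scgb3a1, Scgb3a2, Bpifa1 and Cyp2f2) and ciliated (Ccdc153, Tmem212, Dynlrb2, 1110017D15Rik, Cfap126 and Sec14l3). A cell entered a class when the sum of its markers reached 5, 500 or 30 UMIs per 10000 respectively, and no other class. All 3 kinds of cell were present on both sides. The basal gate took 45.1% of donor-derived cells (710 of 1576, interval 42.6% to 47.6%) and 44.6% of endogenous cells (806 of 1807, 42.3% to 46.9%). The secretory gate took 31.2% (28.9% to 33.5%) and 29.1% (27.0% to 31.3%), and the ciliated gate 16.1% (14.3% to 18.0%) and 19.7% (17.9% to 21.6%). The gate markers are not read as results. Since they differed between the sides, these shares describe the gates and are not read as cell numbers: in the basal gate the median sum of the 4 basal gate markers was 17.7 per 10000 in donor-derived and 29.95 in endogenous cells. The thresholds were set after the distributions had been seen, and 93, 59 and 17 donor-derived cells and 37, 79 and 43 endogenous cells lay within 1.5-fold of the basal, secretory and ciliated thresholds. Median depth was 9144 and 7760 UMIs per cell in the basal gate, 16230 and 16930 in the secretory gate and 11690 and 11890 in the ciliated gate.

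Within every gate the donor-derived cells differed from the endogenous cells in 416 to 532 genes, and some genes were apart in all 3 classes. UMIs were summed per gate, expressed as CPM, and compared as log2(CPM + 5), donor-derived minus endogenous, centred on the median of the genes with at least 20 CPM on either side, which are called measured here. The centring moved the values by 0.14, 0.39 and 0.11 in the basal, secretory and ciliated gates. A gene was called where this relative log2 difference reached 1 in either direction and the exact Poisson interval of its CPM ratio, centred alike, excluded 1. In the basal gate 197 of 6544 measured genes were higher (3.01%) and 228 were lower (3.48%) in donor-derived cells. In the secretory gate 181 of 5250 were higher (3.45%) and 235 lower (4.48%), a split that turned to 379 higher and 162 lower without the centring. In the ciliated gate 189 of 7183 were higher (2.63%) and 343 lower (4.78%). The side with more large differences was the lower one: 96, 88 and 130 genes were at least 4-fold lower in the 3 gates, against 60, 55 and 51 at least 4-fold higher, and 9, 17 and 22 were at least 16-fold lower.

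The primary recipient gave far fewer calls under the same rule. There 6 genes were higher (0.095% of 6318) and 36 lower (0.57%) in the basal gate, 19 higher (0.389% of 4886) and 29 lower (0.594%) in the secretory gate, and 21 higher (0.306% of 6871) and 6 lower (0.0873%) in the ciliated gate. The median absolute relative log2 difference over all measured genes was 0.18, 0.21 and 0.23 in the basal, secretory and ciliated gates here, against 0.08, 0.11 and 0.12 for the primary graft.

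Of the 4617 genes measured in all 3 gates, 38 were called higher in every gate (0.823%) and 45 were called lower in every gate (0.975%). The 3 gates of a side come from 1 library, so this overlap is a description and not a repeat. It held 38.4%, 36.5% and 38% of the genes called higher in the basal, secretory and ciliated gates among genes measured in all 3, and 44.6%, 39.5% and 33.3% of those called lower. At least 4-fold in the same direction in every gate were 18 genes higher (0.39% of 4617) and 22 lower (0.476%). The 18 include the EGFP reporter, on which the cells were sorted, and the 22 include the gate markers Bpifa1 and Scgb3a1. The calls of the reporter and of these markers are not read as results. Genes of both sets were kept even where a level lay under 10% of that in another gate of the same library. This held for Reg3g, Cyp2a5 and Lyz2 in the endogenous basal gate, where RNA carried over from other cells was not told apart.

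Slc16a11, a member of the monocarboxylate transporter family (ENSMUSG00000040938, chr11:70212752-70216417, plus strand, GRCm38), was nearly absent from donor-derived cells of every class. In the basal gate its level was 1.38 CPM on the donor side and 83.9 CPM on the endogenous side, 0.950 and 221 CPM in the secretory gate, and 5.17 and 408.5 CPM in the ciliated gate. These are 60.9-fold (33.8 to 122.7), 232.7-fold (117.8 to 539.7) and 78.95-fold (48.5 to 138.4) lower levels. With every cell thinned to 4000 UMIs, 0.709%, 0.204% and 0.797% of donor-derived cells had a UMI of Slc16a11, against 25.8%, 56.3% and 78.9% of endogenous cells (without thinning 1.13%, 0.815% and 1.58% against 38.3%, 90.9% and 95.5%). The 2 sides of the primary recipient were close to each other, at 77.2 and 109.3 CPM in the basal gate, 315 and 347.5 CPM in the secretory gate and 481 and 454 CPM in the ciliated gate. Its difference in the iBC recipient thus had no counterpart of that size in the primary graft.

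Slc16a11 and, in the other direction, Cdkn2a and Aim2 were among the genes most nearly present on 1 side alone. Their promoters are shown because they differ in CpG content, CpG being the dinucleotide at which DNA methylation acts. The 250 bases before the RefSeq transcript start (GRCm38.p6, read on the gene's strand, 5′ to 3′, CG in capitals) hold 14 CG in Slc16a11 (chr11:70213660-70213909, plus strand), 4 in Aim2 (chr1:173420354-173420603, plus strand), 40 at the upstream start of Cdkn2a (chr4:89294620-89294869, minus strand) and 7 at its downstream start (chr4:89282193-89282442, minus strand). The Slc16a11 window lies within the gene span given above, which is from GENCODE and starts upstream of the RefSeq start. Of 27025 symbols with a promoter in the table, 10328 (38.2%) have at least 10 CG in that window. CG reads the same on both strands, and the count says nothing of methylation, which was not measured.
Slc16a11: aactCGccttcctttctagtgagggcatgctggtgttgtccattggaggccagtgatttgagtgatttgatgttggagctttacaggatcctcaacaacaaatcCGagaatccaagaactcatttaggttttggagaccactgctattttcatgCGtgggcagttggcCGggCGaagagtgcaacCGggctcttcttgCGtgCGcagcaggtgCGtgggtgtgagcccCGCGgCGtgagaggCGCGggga
Aim2: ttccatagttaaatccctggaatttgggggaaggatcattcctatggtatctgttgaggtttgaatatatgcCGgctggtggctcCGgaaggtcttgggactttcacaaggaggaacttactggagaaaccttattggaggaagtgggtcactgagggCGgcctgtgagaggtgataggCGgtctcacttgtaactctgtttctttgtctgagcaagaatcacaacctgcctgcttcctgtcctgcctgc
Cdkn2a, start 1: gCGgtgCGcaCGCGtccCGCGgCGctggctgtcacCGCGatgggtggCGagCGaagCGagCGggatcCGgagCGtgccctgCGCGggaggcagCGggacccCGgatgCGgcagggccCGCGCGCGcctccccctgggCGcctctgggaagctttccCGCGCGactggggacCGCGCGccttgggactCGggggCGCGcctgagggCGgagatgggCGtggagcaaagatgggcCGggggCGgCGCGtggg
Cdkn2a, start 2: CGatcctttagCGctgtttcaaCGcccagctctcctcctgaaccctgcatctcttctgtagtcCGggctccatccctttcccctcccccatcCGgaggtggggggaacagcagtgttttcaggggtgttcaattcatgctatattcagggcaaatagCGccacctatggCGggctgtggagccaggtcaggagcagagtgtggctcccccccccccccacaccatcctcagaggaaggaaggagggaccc

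Reg3g and Cyp2a5 were abundant in endogenous cells and scarce in donor-derived cells. Reg3g, a secreted C-type lectin that binds Gram-positive bacteria, stood in the basal gate at 6.14 CPM on the donor side and 208.8 CPM on the endogenous side, 1.90 and 3784 CPM in the secretory gate, and 6.14 and 6206 CPM in the ciliated gate. Its level was 1991-fold (1226 to 3484) lower in the secretory gate and 1010-fold (646.7 to 1678) lower in the ciliated gate. In the endogenous library its CPM was thus higher in the ciliated than in the secretory gate. The secretory gate markers took a median of 4036 per 10000 UMIs in endogenous secretory-gate cells and 58.1 in ciliated-gate cells. That lowers the CPM of all other genes in the secretory gate, so this order is not read as a difference in Reg3g itself. Both sides of the primary recipient had abundant Reg3g, at 34220 CPM donor-derived and 52460 CPM endogenous in the secretory gate. Cyp2a5, a cytochrome P450 that oxidises coumarin and nicotine (ENSMUSG00000005547, chr7:26835305-26843548), stood at 0.501 and 117.9 CPM in the basal gate, 84.7 and 2651 CPM in the secretory gate, and 303.6 and 6217 CPM in the ciliated gate. It was 235.3-fold (91.5 to 865.8), 31.3-fold (29.1 to 33.8) and 20.5-fold (19.2 to 21.9) lower. Its primary counterpart was at 5003 and 4564 CPM in the secretory gate. Reads of Cyp2a5 could be shared with near-identical Cyp2a genes.

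Sult1d1, a cytosolic sulfotransferase acting on catecholamines, was lower in all 3 gates. Its donor-derived and endogenous levels were 42.7 and 1369 CPM in the basal gate, 4.28 and 482.8 CPM in the secretory gate and 44.3 and 806.9 CPM in the ciliated gate. The folds were 32.05 (28.8 to 35.8), 112.9 (81.4 to 161.5) and 18.2 (15.4 to 21.8). A UMI was present in 5.11% of thinned donor-derived basal-gate cells and in 90.9% of the endogenous ones (7.75% and 94.0% without thinning). The transcript was thus detected in nearly all endogenous cells and in few donor-derived cells of this gate. Ly6k, a GPI-anchored protein of the Ly6 family on chromosome 15, stood at 4.89 and 268.8 CPM in the basal gate, a 55.0-fold lower level (40.1 to 77.6), and had 2 and 3 UMIs in all donor-derived secretory and ciliated cells together, against 333.5 and 121.3 CPM on the endogenous side. The primary recipient differed from the iBC recipient in this gene altogether, with 16.1 and 12.7 CPM in the secretory gate. Its neighbour Ly6d, at chr15:74762056-74763620, went the other way, with 3005 and 517 CPM in the basal gate, 3484 and 415 CPM in the secretory gate and 79.2 and 13.7 CPM in the ciliated gate, all higher in donor-derived cells.

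Cd36, a scavenger receptor for long-chain fatty acids and lipoproteins, had 2 UMIs in the donor-derived basal gate (0.251 CPM) against 70.7 CPM in endogenous cells. In the secretory gate it stood at 1.90 and 213.4 CPM, 112.3-fold lower (69.0 to 196.9), and in the ciliated gate at 1.94 and 148.9 CPM, 76.7-fold lower (35.1 to 209.9). Cd36 was also lower in the donor-derived basal gate of the primary recipient, at 2.17 and 54.6 CPM, which makes it 1 of 5 of the 22 genes lower in every gate that were called lower in at least 1 gate there. The others of these 5 were Cdkn1c, Cyp2a5, Reg3g and Scgb3a1, the last being a secretory gate marker and not read as a result. A further 2 of the 22, Lyz2 (4766 and 2320 CPM) and Ly6k (23.9 and 6.55 CPM), were called higher in the ciliated gate of the primary recipient. Lyz2, which encodes a secreted lysozyme, was at 9.40 and 197.5 CPM, 466 and 6831 CPM, and 82.5 and 4350 CPM in the 3 gates. Cyba, a subunit of the NADPH oxidase complex, was at 4.13 and 87.2 CPM, 28.4 and 252 CPM, and 19.1 and 296.6 CPM. Unc93b1, which carries Toll-like receptors to endosomes, was at 0.501 and 20.8 CPM, 1.54 and 28.8 CPM, and 12.3 and 86.9 CPM.

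Transcription factors and growth regulators made up a further part of the 22. Irx2, an Iroquois homeobox factor, stood at 16.5 and 82.3 CPM in the basal gate, 4.16 and 41.4 CPM in the secretory gate and 13.9 and 71.2 CPM in the ciliated gate. Tbx1, a T-box factor of the pharyngeal region, was at 0.376 and 35.7 CPM, 0.475 and 21.3 CPM, and 4.20 and 48.5 CPM, and Otx1, an orthodenticle homeobox factor, at 4.01 and 46.9 CPM, 2.38 and 31.6 CPM, and 4.85 and 41.7 CPM. Endogenous cells of each class thus had these patterning factors at 21.3 to 82.3 CPM, and donor-derived cells at 16.5 CPM or less. Cdkn1c, an imprinted inhibitor of cyclin-dependent kinases, was at 1.002 and 51.6 CPM, 0.831 and 21.3 CPM, and 0.647 and 41.5 CPM. Igf2r, the imprinted receptor that clears insulin-like growth factor 2, was at 12.4 and 60.0 CPM, 7.48 and 47.8 CPM, and 3.88 and 73.5 CPM. Airn, the noncoding transcript that overlaps Igf2r on the opposite strand, was at 42.1 and 24.9 CPM in the basal gate, was not called in any gate, and its reads cannot be told apart from those of Igf2r where the counting used no strand, which the sources used here do not state. Lgr6, a receptor for R-spondins, was at 1.38 and 61.7 CPM in the basal gate, 44.8-fold lower (24.7 to 90.4), where the primary recipient had 140 and 118 CPM. The remaining 7 of the 22 genes were Slc15a2, Atp6v1c2, Upk1b, Sobp, 2210016F16Rik and the secretory gate markers Bpifa1 and Scgb3a1. Slc15a2, a peptide transporter, was at 13.8 and 135 CPM in the basal gate, and Upk1b, a tetraspanin of the urothelium, at 22.4 and 127 CPM.

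On the higher side, Cdkn2a was nearly absent from endogenous cells. It encodes the cell cycle inhibitors p16Ink4a and p19Arf from separate starts, which 3′ counts cannot tell apart. In the basal gate it had 541 UMIs in donor-derived cells (67.8 CPM) and 0 in endogenous cells, at least 145.4-fold higher against a floor of 3 counts over the gate. In the secretory gate it stood at 99.3 CPM against 0.341 CPM from 3 UMIs (ratio 291.1, 99.25 to 1414), and in the ciliated gate at 135.5 against 1.41 CPM (ratio 95.9, 43.7 to 262.7). With thinned cells, 24.3%, 32.7% and 42.6% of donor-derived cells had a UMI, against 0%, 0.193% and 0.285% of endogenous cells (45.5%, 78.2% and 80.6% against 0%, 0.570% and 1.40% without thinning). Of the 18 genes 3 were called higher in at least 1 gate of the primary recipient too. They were Ly6d, Cdkn2a and EGFP, the last being the reporter used for the sort and not a result. A further 1, the class II chaperone Cd74, was called lower in the secretory gate of that recipient (7.89 and 30.5 CPM). Cdkn2a was there at 16.95 and 0.504 CPM in the basal gate, 32.6 and 1.12 CPM in the secretory gate and 99.5 and 0.252 CPM in the ciliated gate. A pair of its neighbours on chromosome 4, chosen after their values were seen, was called higher in at least 1 gate. Mtap (chr4:89137122-89181081), which salvages methionine, was at 49.7 and 18.3 CPM, 35.3 and 10.3 CPM, and 33.3 and 5.42 CPM, called in every gate. Cdkn2b (chr4:89306299-89311039), which encodes p15Ink4b, was called in the ciliated gate at 77.0 and 13.7 CPM and lay under 20 CPM in the others (14.5 and 1.71 CPM, 19.4 and 3.98 CPM). Farther along the chromosome, Klhl9 (78.8 and 76.4 CPM in the basal gate) and Mllt3 (56.75 and 62.45 CPM), were not called in any gate.

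Aim2 and C130026I21Rik, both on chromosome 1, were almost confined to donor-derived cells of this recipient among the 4 libraries. Aim2, a sensor of cytosolic DNA (ENSMUSG00000037860), had 314 UMIs and 39.3 CPM in the donor-derived basal gate and 0 UMIs in the endogenous one, at least 84.4-fold higher. In the secretory gate it had 31.6 CPM against 0 UMIs (at least 92.6-fold), and in the ciliated gate 25.9 CPM against 1 UMI (ratio 109.8, 19.2 to 4391). Aim2 was at 0.0869 CPM in the donor-derived basal gate of the primary recipient and at 0 UMIs in its other gates and sides. C130026I21Rik, an Sp110-like gene at chr1:84992690-85270566, was at 211.5 and 2.64 CPM in the basal gate, 127.8 and 1.48 CPM in the secretory gate and 99.3 and 3.06 CPM in the ciliated gate, ratios of 80.1 (49.9 to 137.8), 86.5 (50.3 to 162.9) and 32.4 (18.7 to 61.6). Near it and chosen after their values were seen, Sp110 (48.7 and 18.5 CPM) and Sp100 (86.3 and 33.6 CPM), components of nuclear bodies, and Hjurp (128 and 12.6 CPM), a histone chaperone of the centromere, were called higher in the basal gate. Ifi203 (26.9 and 8.54 CPM) and Mndal (21.9 and 6.68 CPM), which lie beside Aim2 in the cluster of interferon-inducible HIN-200 genes, were also called higher in the basal gate and in no other gate. Copies of the Sp110 and HIN-200 genes are near-identical to each other, so reads could have been split among them. AC168977.1 (93.0 and 1.09 CPM in the basal gate), AC133103.1 (63.9 and 0.932 CPM) and Csprs (45.5 and 1.55 CPM) are annotated on unplaced scaffolds, and all 3 were called higher in every gate.

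**Figure D1:**
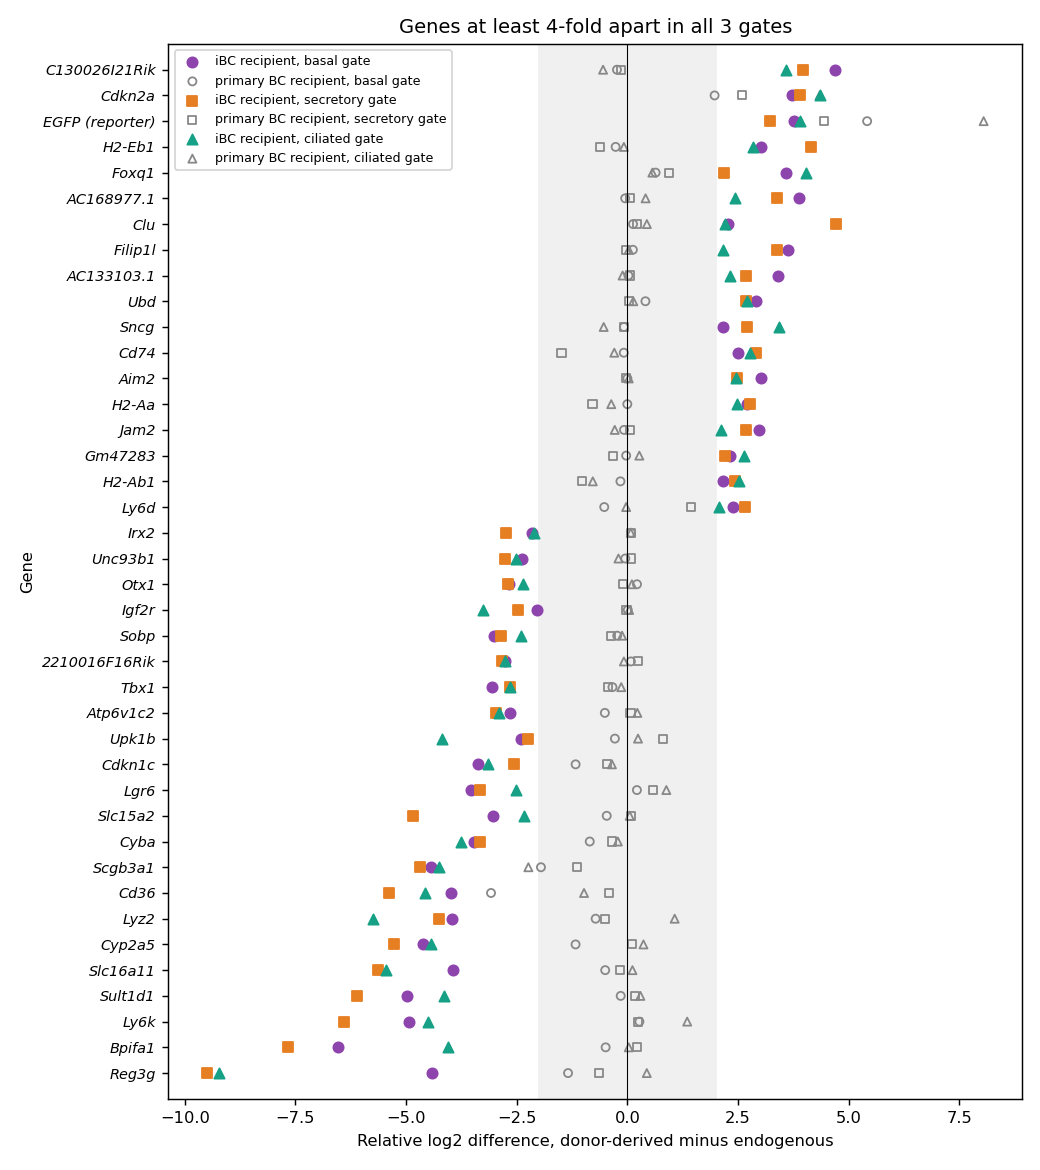
Genes at least 4-fold apart in the same direction in all 3 gates of the iBC recipient, with relative log2 difference (donor-derived minus endogenous) on the x axis and 1 row per gene, by gate, and the same genes of the primary recipient beside them. The 18 higher and 22 lower genes lie at 2 or beyond in the iBC recipient. The primary recipient's points mostly sit near 0, with exceptions that include EGFP, Cdkn2a and, in the basal gate, Cd36.

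Antigen presentation genes stood higher on the donor side in every class. H2-Eb1, a class II beta chain at chr17:34305867-34316674, stood at 695.9 and 73.3 CPM in the basal gate, 490 and 16.4 CPM in the secretory gate and 360 and 42.4 CPM in the ciliated gate. Its ratios were 9.49 (8.64 to 10.45), 29.9 (25.3 to 35.6) and 8.50 (7.25 to 10.0). A UMI of H2-Eb1 was present in 75.2%, 67.3% and 57.4% of thinned donor-derived cells and in 12.6%, 5.20% and 7.41% of endogenous cells (88.9%, 91.4% and 76.3% against 18.9%, 12.5% and 14.3% without thinning). The higher level was thus spread over most donor-derived cells. Cd74, the invariant chain that escorts class II molecules, was at 2460 and 392.3 CPM, 2073 and 207 CPM, and 1670 and 223 CPM, and H2-Aa and H2-Ab1, the chains of the other class II molecule, were at 605.6 and 80.6 CPM and at 568 and 110.6 CPM in the basal gate. These genes were low in the gates of the primary recipient, where Cd74 was at 24.2 and 25.3 CPM in the basal gate and H2-Eb1 at no more than 4.91 CPM in any gate or side. Its whole libraries, which include cells outside the gates, had H2-Eb1 at 12.8 CPM donor-derived and 310.1 CPM endogenous, called lower. H2-Aa (14.4 and 334.4 CPM) and H2-Ab1 (15.4 and 323.8 CPM) were called lower there too. Whole libraries of the iBC recipient went the other way, with H2-Eb1 at 552.2 and 110 CPM.

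Of the list of MHC class II presentation genes, 7 of 7 measured were called higher in the basal gate, 5 of 6 in the secretory gate and 6 of 6 in the ciliated gate, with none lower and median relative log2 differences of 2.17, 2.60 and 2.5, beside 3.01%, 3.45% and 2.63% of all measured genes called higher. The list was chosen with these genes' differences already known. Ciita, the transcription factor that switches on class II genes, was called higher in the basal gate (27.4 and 4.51 CPM) and lay under 20 CPM on both sides elsewhere. The donor-derived gates held few signs of leukocytes: Ptprc, Cd3e and Itgax had 0 UMIs in all 3 donor-derived gates, Tyrobp and Cd52 had at most 3 UMIs in any, and the only immune marker measured, Lyz2, was lower in donor-derived cells. Class I molecules were higher by less. B2m, their shared light chain, was at 1670 and 729 CPM in the basal gate, 1732 and 588.7 CPM in the secretory gate and 2391 and 973 CPM in the ciliated gate, called in all 3. H2-K1 was called in the secretory (2352 and 829 CPM) and ciliated gates (5010 and 2173 CPM), where in the basal gate its relative log2 difference was 0.995. Reads of H2 genes can be shared among near-identical copies and differ with the strain's haplotype.

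Interferon-induced genes as a family did not move as one. Of 31, 27 and 31 measured members in the basal, secretory and ciliated gates, 10, 4 and 4 were called higher and 2, 0 and 1 lower, and the medians were 0.09, 0.12 and 0.28, beside 3.01%, 3.45% and 2.63% of all measured genes called higher and 3.48%, 4.48% and 4.78% lower. The guanylate-binding proteins, GTPases that act against intracellular microbes, were the ones that stood out: Gbp2, Gbp3, Gbp4, Gbp5, Gbp8, Gbp9 and Gbp2b were all called higher in the basal gate. Gbp2b was at 95.7 and 18.0 CPM there, 49.3 and 13.8 CPM in the secretory gate and 68.9 and 13.9 CPM in the ciliated gate, and had 0 CPM in the primary recipient. Among the interferon-inducible T cell chemokines, Cxcl9 had 36.1 CPM against 0 UMIs in the basal gate and Cxcl10 82.7 and 32.5 CPM, while Ccl20, which attracts dendritic cells and lymphocytes, was lower (22.6 and 276 CPM). Ubd, a ubiquitin-like protein induced by interferon and tumour necrosis factor, was higher in all gates, at 66.0 and 3.57 CPM, 41.7 and 0.569 CPM, and 51.4 and 3.06 CPM. The proteasome showed 1, 0 and 1 genes higher of 44, 42 and 44 measured, beside 3.01%, 3.45% and 2.63% of all measured genes. It was the immunoproteasome subunit Psmb9 in both cases (98.85 and 36.97 CPM in the basal gate).

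Foxq1 led the transcription factors that were higher. This forkhead factor (ENSMUSG00000038415, chr13:31556134-31560976) stood at 262 and 15.1 CPM in the basal gate, 318 and 49.2 CPM in the secretory gate and 209 and 7.07 CPM in the ciliated gate, ratios of 17.4 (14.2 to 21.6), 6.46 (5.84 to 7.17) and 29.6 (20.5 to 44.2). A UMI was present in 52.8%, 69.8% and 49.4% of thinned donor-derived cells and 5.08%, 16.4% and 1.71% of endogenous cells (75.5%, 92.1% and 79.45% against 9.06%, 41.4% and 5.62% without thinning). The foregut and airway transcription factors were split, with 6, 3 and 6 members higher and 7, 6 and 6 lower of 27, 27 and 25 measured, beside 3.01%, 3.45% and 2.63% of all measured genes higher and 3.48%, 4.48% and 4.78% lower. Gata6, a GATA factor of distal lung and other endoderm, was higher in all gates, at 122 and 34.5 CPM, 73.3 and 15.8 CPM, and 67.9 and 4.48 CPM. Id1, an inhibitor of basic helix-loop-helix factors and a target of BMP signalling, was at 358 and 89.3 CPM in the basal gate and 217.6 and 16.3 CPM in the ciliated gate. Against these, the Iroquois factors were lower without exception among those measured, 4 of 4, 3 of 3 and 3 of 3, with medians of -1.99, -1.84 and -2.12, beside 3.48%, 4.48% and 4.78% of all measured genes. Irx1 (0.877 and 42.9 CPM in the basal gate), Irx3 (11.02 and 34.6 CPM) and Irx5 (18.7 and 70.7 CPM) were among them. Isl1, a LIM homeobox factor, was at 1.253 and 48.8 CPM in the basal gate and had 1 UMI against 28.7 CPM in the secretory gate. Hoxb2 had 0 UMIs in donor-derived against 21.9 CPM in endogenous basal-gate cells, and Hoxb4 3 UMIs against 22.7 CPM (60.35-fold lower, 20.3 to 296), where the primary recipient had 61.1 and 44.2 CPM of Hoxb2 and 51.7 and 34.9 CPM of Hoxb4. The factors that mark airway identity were not called in any gate: Nkx2-1 was at 85.6 and 110.9 CPM, Sox2 at 186.2 and 320.0 CPM and Foxa1 at 172.0 and 154.3 CPM in the basal gate. Of the pluripotency list only Sox2 was measured, and none was called.

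The basal gate held further differences of its own. Hspb1, a small heat shock protein that chaperones unfolded proteins, stood at 10.9 CPM on the donor side and 508.3 CPM on the endogenous side, 46.6-fold lower (37.7 to 58.4), and was found in 1.99% and 79.1% of thinned cells (4.23% and 91.6% without thinning). Cryab, the small heat shock protein alpha-B crystallin, went the other way, at 157.9 and 1.24 CPM, ratio 127 (64.3 to 294.8), and was found in 27.7% and 0.381% of thinned cells (45.5% and 0.744% without thinning). The same exchange was seen in the secretory gate, where Hspb1 had 2 UMIs against 178.9 CPM and Cryab was at 272 and 2.62 CPM. Both sides of the primary basal gate had Hspb1 (333.8 and 390.4 CPM) and hardly any Cryab (1.74 and 1.76 CPM). Of the other small and inducible heat shock proteins none was called in the basal gate.

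Structural genes of basal cells were partly shifted and partly equal. Krt5, the basal keratin that was part of the gate, was at 1638 and 1601 CPM, and Krt15 at 4895 and 5130 CPM. Krt14, the partner keratin of Krt5, was higher at 1725 and 372 CPM, as were Krt6a (32.3 and 3.26 CPM) and Krt13 (74.2 and 18.8 CPM), while Krt17 was lower (151 and 519.5 CPM). The primary recipient also had more Krt14 on the donor side (884 and 405.8 CPM). Col4a3 (43.6 and 3.73 CPM) and Col4a4 (93.0 and 8.86 CPM), chains of the basement membrane collagen IV, were higher. Abi3bp, an extracellular matrix protein, was lower at 51.6 and 1052 CPM (20.4-fold, 18.5 to 22.6). Apoe, the lipid carrier apolipoprotein E, was at 665.6 and 4016 CPM, and was lower on the donor side of the primary recipient as well (143.1 and 1530 CPM).

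Further genes of the ranked set were Mme, the cell-surface peptidase neprilysin, at 1.503 and 67.7 CPM (45.1-fold lower, 25.5 to 87.9), which was also lower in the primary recipient's donor-derived cells (12.4 and 80.5 CPM), Fmo6, a flavin monooxygenase, at 6.01 and 188.9 CPM, and Ugt2b34, a glucuronosyltransferase, at 2.51 and 94.3 CPM. On the higher side stood Filip1l, a regulator of cell migration, at 120.9 and 4.20 CPM, Rapgef5, an exchange factor for Rap GTPases, at 95.1 and 4.35 CPM, and Cpe, the prohormone-processing carboxypeptidase E, at 87.6 and 4.51 CPM. Of 4 measured cell cycle markers 3 were called higher, beside 3.01% of all measured genes. Mki67 was at 42.3 and 12.9 CPM, and 262 of its 338 donor-derived UMIs came from the 2.78% of 216 cells with a raised chromosome 5 RNA share (described below) that had any. The donor-derived basal gate also carried Dcn, the matrix proteoglycan decorin, as did the endogenous one, at 618.6 and 579.6 CPM, close to each other. Dcn was on the fibroblast marker list, whose other members were nearly absent. Col1a1, Col1a2, Col3a1, Lum and Mfap5 had 0 UMIs and Pdgfra 2 UMIs in the whole donor-derived library. In the endogenous library they were at no more than 1.89 CPM.

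Sftpc, the surfactant protein C of alveolar type 2 cells (ENSMUSG00000022097, chr14:70520949-70524081), was the highest-ranked gene of the basal gate. It stood at 155.6 CPM from 1242 UMIs in donor-derived cells against 0.155 CPM from 1 UMI in endogenous cells (ratio 1002, 179.4 to 39590). In thinned cells it was found in 13.3% of the donor-derived basal gate, 5.10% of the secretory gate and 3.98% of the ciliated gate (19.7%, 9.16% and 11.5% without thinning, at median depths of 9144, 16230 and 11690 UMIs), against 0.127%, 0% and 1.99% of endogenous cells. The basal share lay above those of the other donor-derived gates. The ciliated gates of the primary recipient held 55.05 and 85.96 CPM of Sftpc against 0.0869 and 0.252 CPM in its basal gates, so no class here can be taken to lack the transcript altogether. Donor-derived cells that entered no gate held the most, 1984 CPM, in 18.4% of 87 cells. Other type 2 genes did not follow as a group: of the alveolar type 2 list 4, 8 and 2 members were measured, with 1, 3 and 0 higher and 1, 2 and 0 lower, beside 3.01%, 3.45% and 2.63% of all measured genes higher and 3.48%, 4.48% and 4.78% lower.

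In the secretory gate, the donor-derived cells had far less of several mucosal defence proteins. Tff2, a trefoil peptide that stabilises mucus (ENSMUSG00000024028, chr17:31141049-31144282), was at 6.18 and 1991 CPM, 322.3-fold lower (245.7 to 431.8), and in 2.04% and 57.2% of thinned cells (6.31% and 72.05% without thinning). Dmbt1, a scavenger receptor protein that binds bacteria in mucus, was at 20.8 and 1848 CPM, 88.9-fold lower (76.6 to 103.8). Both are proteins of mucosal surfaces beyond the airway, and the list of stomach and intestine genes had 3 of 4 measured members lower and 1, Cldn18, higher, beside 4.48% of all measured genes lower and 3.45% higher. Tff1 (1 UMI and 41.2 CPM), Agr2, a disulfide isomerase needed for mucin folding (156 and 696.5 CPM), Spdef, a factor of goblet cells (7.96 and 24.9 CPM), and Muc5b, a gel-forming mucin (944 and 1959 CPM), were all lower. Muc5b was at 2476 and 4315 CPM in the primary recipient.

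Several other genes of the secretory gate were close to absent from donor-derived cells. Chad, a leucine-rich matrix protein, had 1 UMI against 207 CPM (ratio of endogenous to donor-derived 1743, 312.4 to 68860). Cyp4a12b, a fatty acid hydroxylase, had 0 UMIs against 118.8 CPM, at least 333.5-fold lower, where the primary recipient had 224.7 and 205.8 CPM. Serpinb11 (2.019 and 91.1 CPM), Sult1c1 (0 UMIs and 68.2 CPM), Slc5a8, a sodium-coupled monocarboxylate transporter (0.475 and 57.4 CPM), and Msln, the surface protein mesothelin (96.3 and 1004 CPM), were lower too.

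The genes higher in donor-derived secretory cells included lipid and EGF-family genes and members of the alveolar type 1 list. Fabp5, a fatty acid binding protein, was at 485 and 6.37 CPM (ratio 76.2, 58.6 to 101.1), in 43.1% and 2.12% of thinned cells (65.6% and 4.56% without thinning), while in the ciliated gate the shares were 7.97% and 7.98% in thinned cells. Clu, the extracellular chaperone clusterin, was at 2362 and 63.8 CPM (ratio 37.0, 34.1 to 40.3). Areg, the EGF receptor ligand amphiregulin, was at 137 and 1.251 CPM (ratio 109.5, 61.0 to 219.9), and Hbegf, another ligand of that receptor, at 60.7 and 3.41 CPM. Of the EGF family list 2 of 4 measured members were called higher, beside 3.45% of all measured genes. Psca, a GPI-anchored surface antigen of stomach and bladder, was at 785 and 41.9 CPM (ratio 18.8, 16.9 to 20.9), and Upk3a, a uroplakin, at 138 and 6.48 CPM. Of the alveolar type 1 list 5 of 9 measured members were higher and 1 lower in the secretory gate, with a median of 1.23, beside 3.45% and 4.48% of all measured genes, the lower one being the ciliated gate marker Sec14l3. The higher ones were Ager, the receptor for advanced glycation end products (72.2 CPM against 2 UMIs, ratio 317.5, 87.5 to 2628), Aqp5, a water channel (1242 and 375.6 CPM), Clic5 (161.6 and 39.2 CPM), Hopx (159 and 48.4 CPM) and Cav1 (51.2 and 2.502 CPM). Cav1 was also on a list of basal markers, and Aqp5, Clic5 and Hopx were present in endogenous secretory cells too, so the list name is not a cell type. An Ager UMI was found in 7.35% of thinned donor-derived secretory cells and 6.81% of basal cells, against 0.193% and 1.14% of endogenous cells. A cell without a UMI may still hold the transcript. Without thinning the shares were 12.8% and 11.3% against 0.380% and 2.23%. Cldn18, a tight junction protein of lung and stomach, had 41.5 CPM against 0 UMIs.

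In the ciliated gate a small set of axoneme genes was nearly absent from donor-derived cells and most others were not called. Of 28 measured members of the axoneme and radial spoke list 8 were called lower (28 genes, median -0.21) and 0 higher, beside 4.78% of all measured genes called lower. Spag6l, a protein of the central pair, was at 3.23 and 291 CPM, 90.1-fold lower (48.8 to 188.4). Spag16, its central pair partner, was at 2.91 and 267 CPM, 91.7-fold lower (48.1 to 201.1), and Tekt1, a filament protein inside the doublets, at 5.82 and 343 CPM, 58.9-fold lower (37.2 to 99.7). These genes were close to equal on the 2 sides of the primary recipient, where Spag6l was at 316.7 and 320.6 CPM and Tekt1 at 307.9 and 377.1 CPM. Drc1, a subunit of the nexin-dynein regulatory complex, was at 6.47 and 325.6 CPM, 50.3-fold lower (32.5 to 82.7), while Drc3 of the same complex was at 352 and 298 CPM and not called. The other members called were Tekt2 (9.70 and 34.9 CPM), Dnah7b (2.91 and 83.6 CPM), Cfap53 (116 and 263 CPM) and Ccdc39 (173 and 327 CPM).

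Among the dyneins, only heavy chains of inner arms were called. Of 19 measured axonemal dyneins 4 were lower, beside 4.78% of all measured genes, and 0 higher: Dnah7a (3 UMIs and 122 CPM, ratio of endogenous to donor-derived 125.8, 42.8 to 612), Dnah7b, Dnah7c (0 UMIs and 40.8 CPM) and Dnah10 (3.23 and 148 CPM). The Dnah7 genes lie on chromosome 1 and are near-identical copies, so reads could have been split among them. The outer arm heavy chains Dnah5 (1345 and 1273 CPM) and Dnah9 (400 and 481 CPM), the radial spoke heads Rsph4a (498 and 374 CPM) and Rsph9 (518 and 391.8 CPM), and the central pair protein Hydin (513 and 550 CPM) were not called. Foxj1, the factor that directs the motile cilium programme, was at 692 and 727 CPM. Of 14 measured intraflagellar transport genes 0 were called, close to the shares of all measured genes, 2.63% higher and 4.78% lower. Odf3b, an outer dense fibre protein, was at 1.94 and 189.6 CPM (97.7-fold lower, 44.7 to 267.1), and Cdh26, a cadherin, at 12.6 and 481.5 CPM (38.2-fold lower, 27.8 to 53.9). Muc16, a large membrane mucin (ENSMUSG00000109564, chr9:18495455-18674530), was at 11.96 and 751 CPM, 62.8-fold lower (45.4 to 89.3), where the primary recipient had 431.6 and 272.7 CPM.

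On the higher side of the ciliated gate, Cacna1s, a subunit of an L-type calcium channel best known in skeletal muscle, was at 125.5 and 2.12 CPM (ratio 59.2, 30.9 to 130.4). Endogenous levels of this gene differed between the recipients, since both sides of the primary recipient had about the same intermediate level, 30.5 and 29.5 CPM. Id3, a further inhibitor of basic helix-loop-helix factors, was at 106 and 4.71 CPM (ratio 22.5, 14.3 to 37.3), Car2, a carbonic anhydrase, at 91.5 and 4.48 CPM (ratio 20.5, 12.9 to 34.5), and H2-Ob, a class II accessory chain, at 145.5 and 10.6 CPM (ratio 13.7, 10.1 to 19.1). Olfm4, a glycoprotein of intestinal stem cells and neutrophils, was at 57.6 CPM against 2 UMIs (ratio 122.2, 33.3 to 1017). Sncg, a synuclein, was at 55.6 CPM against 1 UMI in the ciliated gate and at 230.1 and 43.0 CPM in the basal gate. Of the list of cell cycle inhibitors and p53 targets 4 of 11 measured members were higher and 1 lower, beside 2.63% and 4.78% of all measured genes. The higher ones were Cdkn2a, Cdkn2b, Phlda3 (70.2 and 23.1 CPM) and Trp53inp1 (139 and 54.4 CPM), while Cdkn1a, the best-known p53 target, was at 76.3 and 139 CPM and not called.

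Some genes that handle xenobiotics were lower in each class. Of 23, 27 and 23 measured members of the xenobiotic and glutathione list 7, 9 and 9 were lower and 0, 1 and 0 higher in the basal, secretory and ciliated gates, with medians of -0.78, -0.63 and -0.77, beside 3.48%, 4.48% and 4.78% of all measured genes called lower. The gate marker Cyp2f2 is among those lower in the basal and ciliated gates. Cyp2a5 and Sult1d1, described above, belong to this list. Gpx2, a glutathione peroxidase, was lower in the basal (61.5 and 236.4 CPM) and ciliated gates (173.0 and 392.2 CPM), and Nqo1, a quinone reductase, in the ciliated gate (2.91 and 62.7 CPM). Cyp2b10 was the exception, higher in the secretory gate at 176.3 and 28.8 CPM.

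Imprinted genes were called in both directions. Besides Cdkn1c and Igf2r, Kcnq1ot1, the noncoding transcript that silences Cdkn1c on the paternal chromosome, was higher in all gates, at 655 and 261 CPM, 431.5 and 140.1 CPM, and 760 and 246 CPM. It overlaps Kcnq1 on the opposite strand, so the limit on strand given for Igf2r holds here too. In the primary recipient Kcnq1ot1 was at 278.6 and 272.9 CPM in the basal gate. Plagl1, an imprinted zinc finger factor, was higher in the basal (44.9 and 15.1 CPM) and ciliated gates (43.3 and 14.8 CPM). Of the list 5, 6 and 6 members were measured, with 1, 1 and 2 higher and 2, 2 and 2 lower, beside 3.01%, 3.45% and 2.63% of all measured genes higher and 3.48%, 4.48% and 4.78% lower.

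Large housekeeping families were nearly free of calls, although the mitochondrially encoded genes lay lower as a group on the centred scale. None of 77 ribosomal protein genes was called in the basal gate (median -0.23), and none of the 13 mitochondrially encoded genes in any gate (medians -0.45, -0.35 and -0.69). The subunits of NADH dehydrogenase (41, 41 and 44 measured) and the translation factors (57, 47 and 56) had 0 called genes in the 3 gates. The 16, 13 and 17 measured genes of histone demethylases, DNA methyltransferases and Tet enzymes also had 0 called genes. Over all measured genes 3.01%, 3.45% and 2.63% were called higher and 3.48%, 4.48% and 4.78% lower in the 3 gates. In sets of 13 to 17 genes a count of 0 is close to these shares and is not read as a result.

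**Figure D2:**
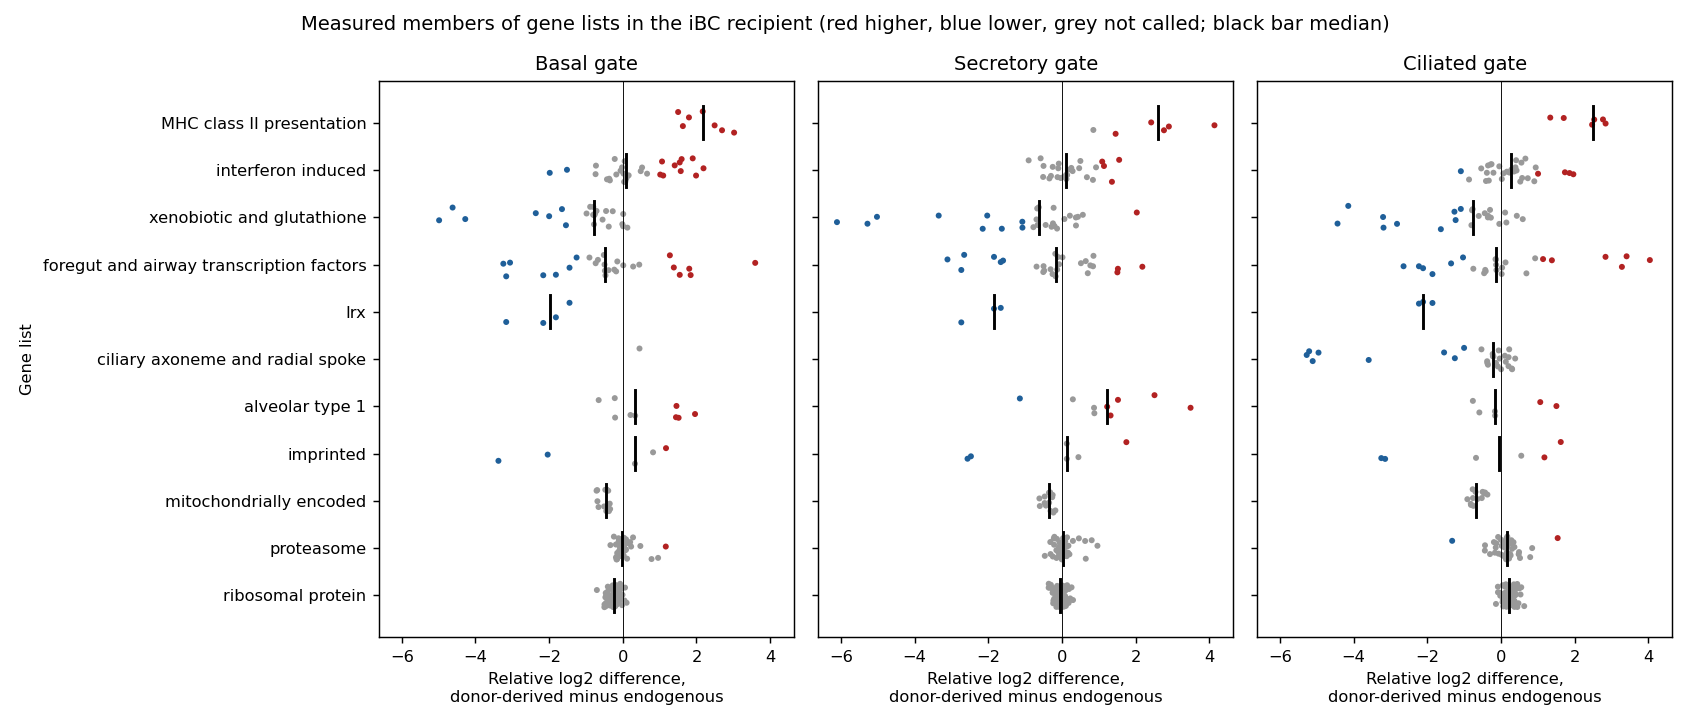
Relative log2 difference (donor-derived minus endogenous) of every measured member of 11 lists and families, by gate, with called members in red (higher) or blue (lower), other members in grey and the median as a black bar. The MHC class II and Irx members lie wholly on opposite sides of 0, and the ribosomal and mitochondrially encoded members form narrow groups without calls.

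For 11 of the 4617 genes (0.238%) measured in all gates the calls pointed in opposite directions in different classes. C3, the central complement component, had relative log2 differences of -1.64 in the basal gate, -2.12 in the secretory gate and 2.32 in the ciliated gate. Lcn2, the iron-sequestering protein lipocalin 2, had 0.91, -2.09 and 1.87, and Hp, the haemoglobin-binding protein haptoglobin, -1.38, 0.44 and 2.64. These 3 inflammation-linked genes were thus lower in a donor-derived basal or secretory gate and higher in the ciliated gate. Tgm2, a transglutaminase, had -1.39, -0.58 and 1.82. In the reverse pattern, Npnt, a basement membrane protein, had 2.10, 2.03 and -1.12, Clca3a2 2.69, 2.56 and -1.0, and Akr1b8, an aldo-keto reductase, 1.0, 1.44 and -1.66.

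The share of RNA from chromosome 5 was raised in a subset of donor-derived cells. For each gated cell the share of UMIs from 277 genes of chromosome 5 among 4041 genes was divided by the median share of endogenous cells of the same gate and recipient. The genes were those measured in all gates, not called in any, not markers, and under 1000 CPM, and the measure was chosen after the data had been seen. Of 1454 donor-derived cells 360 (24.8%, interval 22.6% to 27.1%) had a relative share of at least 1.25, with a median of 1.44, against 9 of 1688 endogenous cells (0.533%, 0.244% to 1.01%). The primary recipient had 0 such cells among 1432 donor-derived and 1065 endogenous cells. A further 51 donor-derived cells (3.51%, 2.62% to 4.59%) had a relative share of at most 0.75, with a median of 0.528, against 2 endogenous cells (0.119%). The SD of the relative share was 0.241 in donor-derived and 0.0829 in endogenous cells, and 49 donor-derived and 19 endogenous cells lay within 0.05 of 1.25. Cells differ in depth here, with a median of 272 UMIs from chromosome 5 per donor-derived and 187 per endogenous cell, and with only cells of at least 10000 UMIs the shares were 21.2% and 0.131%.

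The raised share was found in all 3 classes and in each of the 10 windows of the chromosome that held enough genes. It was present in 216 of 710 basal-gate cells (30.4%, 27.1% to 33.95%), 114 of 491 secretory-gate cells (23.2%, 19.6% to 27.2%) and 30 of 253 ciliated-gate cells (11.9%, 8.15% to 16.5%). These intervals treat the cells of 1 library as independent draws, so the difference between gates was not tested. The lowered share went the other way, with 6 (0.845%), 35 (7.13%) and 10 (3.95%) cells. In these windows of 10 Mb with at least 10 genes, the summed relative share of the high cells was 1.27 to 1.73 in the basal gate (median 1.47), 1.07 to 1.65 in the secretory gate (median 1.44) and 1.24 to 1.71 in the ciliated gate (median 1.39), and that of the low secretory-gate cells 0.422 to 0.637 (median 0.525). The cells had been chosen on the share of the whole chromosome, and its other stretches held too few genes. Using only the genes before or after the middle gene of the chromosome, 364 and 353 donor-derived cells were high, 318 of them by both. Only RNA was measured, and the number of chromosomes per cell was not.

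**Figure D3:**
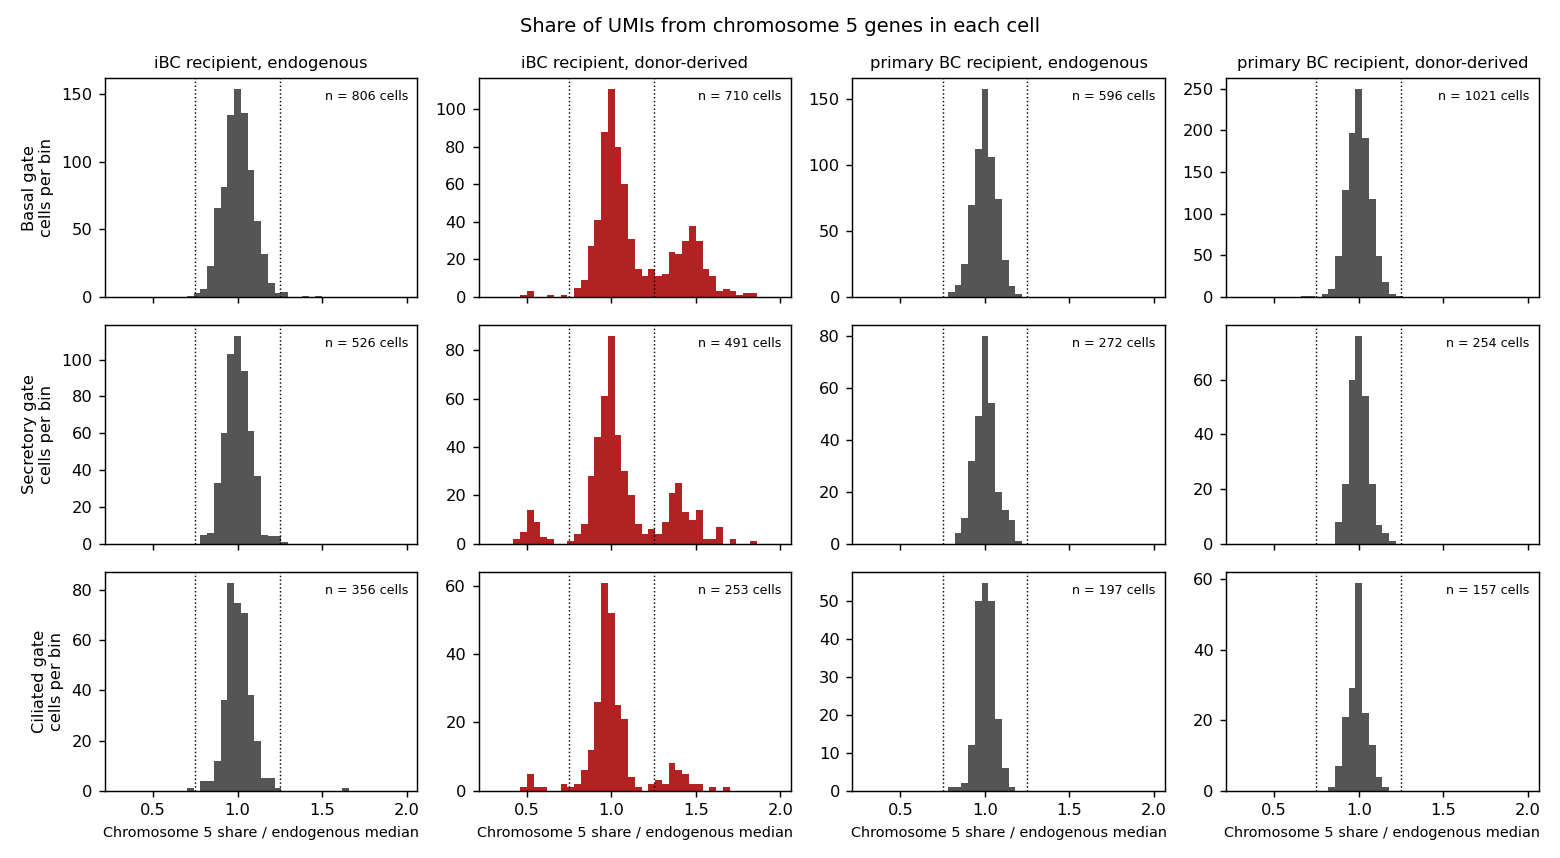
Relative share of UMIs from chromosome 5 per cell, by gate and library, 1 being the median of endogenous cells of the same gate and recipient, with lines at 0.75 and 1.25. Donor-derived cells from the iBC graft have a further group around 1.44 that holds 24.8% of cells and is not seen in the other 3 libraries.

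The subset was also visible in the gene-level differences of the basal and secretory gates. The median relative log2 difference of chromosome 5 genes was 0.19 in the basal gate, where 76.1% of 443 genes lay above 0. It was 0.09 in the secretory gate (65.4% of 341 genes) and 0.03 in the ciliated gate (55.4% of 475 genes). The medians of the other autosomes and the X chromosome lay between -0.06 and 0.04, a range that also held the ciliated value of chromosome 5. With only donor-derived cells of the middle range (relative share above 0.75 and below 1.25), the basal median for chromosome 5 was 0.02. A value near 0 follows largely from choosing cells on that share. With those cells 190 genes were called higher in the basal gate, 171 of them among the 197 called with all cells, and 231 lower, 218 of them among the 228. High and middle cells of the basal gate shared the direction of main differences of the donor side, but not always the level. Cdkn2a was at 76.4 and 63.3 CPM, EGFP at 88.5 and 61.7 CPM and Slc16a11 at 0.835 and 1.63 CPM. Sftpc was at 198.7 and 138.6 CPM, Cd74 at 1940 and 2673 CPM and Hspb1 at 2.92 and 14.5 CPM, the last from 7 and 80 UMIs. Mki67 was at 109 CPM in high and 13.8 CPM in middle cells, but rested on 2.78% and 1.64% of cells.

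Chromosome 8 showed low shares in a further subset. Of the donor-derived cells 68 (4.68%, 3.65% to 5.89%) had a relative share of at most 0.75, against 4 endogenous cells (0.237%), and they made up 4.09%, 6.11% and 3.56% of the basal, secretory and ciliated gates. Low shares were also more frequent for chromosome 14 (51 cells, 3.51%, against 22, 1.303%), chromosome 15 (32 cells, 2.20%, against 10, 0.592%) and chromosome 13 (30 cells, 2.06%, against 10, 0.592%). High shares of the X chromosome were found in 83 donor-derived cells (5.71%, 4.57% to 7.03%) and 54 endogenous cells (3.20%, 2.41% to 4.15%). For chromosomes 15 and X the values were shifted as a whole and hardly wider. Donor-derived medians were 0.959 and 1.03, with SDs of 0.0996 and 0.132 against 0.0994 and 0.130 in endogenous cells. Their low and high cells had medians of 0.72 and 1.29, near the thresholds, against 0.545 for the low chromosome 8 cells. Of the 68 donor-derived cells with a low chromosome 8 share, 17 had a high chromosome 5 share. This is close to the 24.8% of all donor-derived cells with a high chromosome 5 share.

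**Figure D4:**
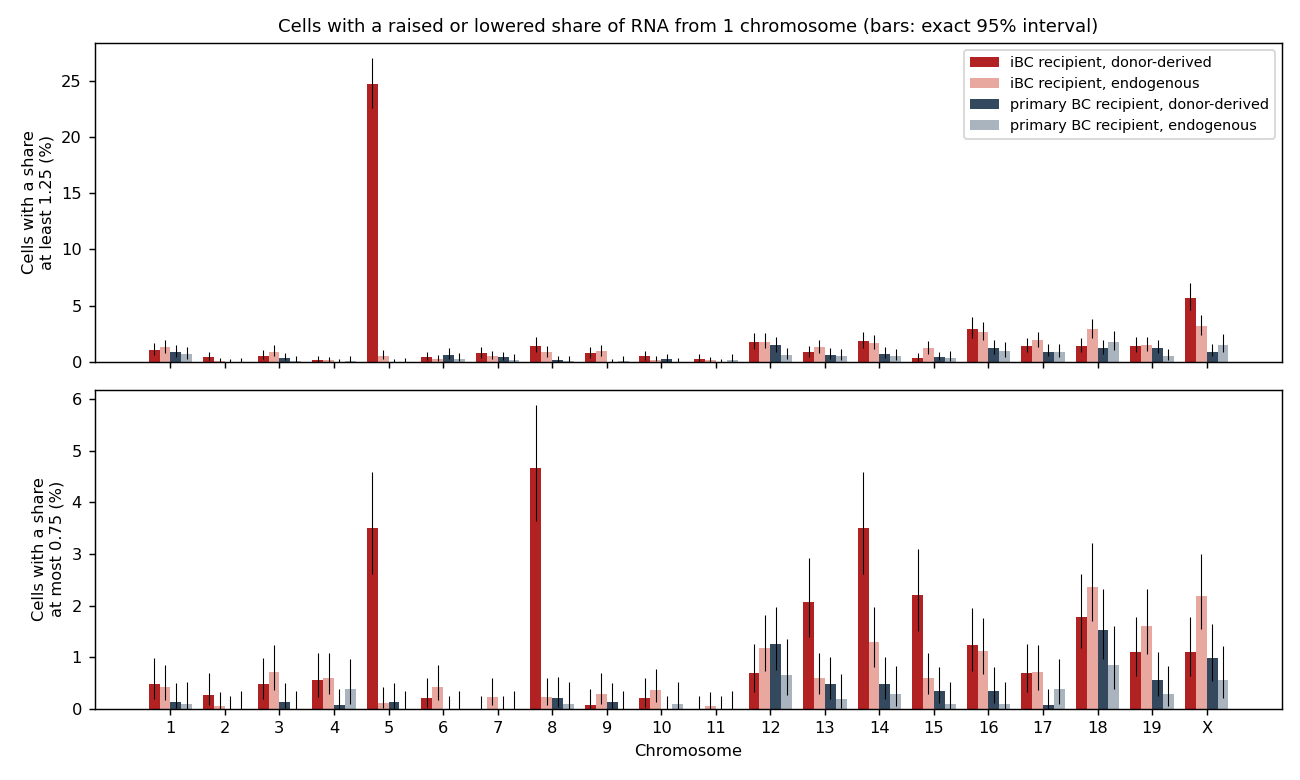
Percentage of gated cells with a high (at least 1.25) or low (at most 0.75) relative RNA share, by chromosome, for the 4 libraries, with lines for exact 95% intervals. In the iBC recipient's donor-derived cells chromosome 5 stands out among the high shares (24.8% against 0.533%) and chromosome 8 among the low shares (4.68% against 0.237%).

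Kdm5d, a Y-linked histone demethylase, was nearly absent from donor-derived cells while the neighbouring Y-linked genes named above were not. It had 12 UMIs (0.559 CPM) in the donor-derived library, in 0.757% of cells (0.392% to 1.32%), against 317 UMIs (14.6 CPM) in 14.4% of endogenous cells (12.9% to 16.1%). By gate it was at 0.752 and 16.3 CPM, 0.475 and 11.4 CPM, and 0 UMIs and 17.4 CPM. The primary recipient had 18.3 CPM donor-derived and 18.7 CPM endogenous. Because its level lay under 20 CPM on both sides it was not among the measured genes.

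The 87 donor-derived cells in no gate and the 52 endogenous ones, with medians of 8317 and 7332 UMIs, differed in more genes than any gate. Of 7636 genes measured between them 795 were higher (10.4%) and 1039 lower (13.6%). These groups were small and mixed, with 895050 and 494950 UMIs in all, fewer than on either side of any gate. A call here can rest on few cells and on unlike mixes of cells, so its count is not read against those of the gates. The endogenous ones had leukocyte transcripts, with the pan-leukocyte gene Ptprc at 358 CPM in 48.1% of cells and Cd52 at 1036 CPM in 42.3%. Among the genes highest in the ungated donor-derived cells relative to the gates were the chemokine Ccl20 at 2410 CPM in 20.7% of cells, Msln at 1190 CPM in 23.0%, and Cyba at 372 CPM in 16.1%. Serpinb1a, a protease inhibitor, and Ccl9, another chemokine, ranked high on both sides: the ungated cells had Serpinb1a at 1458 and 1416 CPM, and Ccl9 at 967.5 and 474.8 CPM. Spib, an Ets factor of B cells and of the M cells that sample antigen, was at 430 CPM in 16.1% of them and at 529 CPM in the ungated endogenous cells. None of these groups was given a cell type name.

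Over whole libraries, where differences in the mix of cells and within cells cannot be told apart, 150 of 6544 genes were higher (2.29%) and 256 lower (3.91%), a split of 210 and 196 without the centring of 0.20. The primary recipient had 6 higher (0.0931% of 6443) and 68 lower (1.06%). Among the lowest-ranked genes were Tff2 at 3.40 and 844.8 CPM (248.3-fold lower), Reg3g at 26.5 and 3030 CPM (114.3-fold) and Slc16a11 at 3.92 and 214.8 CPM (54.9-fold). Tff2 was lower in the donor-derived library of the primary recipient too, at 77.0 and 483.9 CPM. The highest-ranked were Sftpc at 169.8 and 1.02 CPM (ratio 167.1, 110.2 to 267), Cryab at 187.2 and 1.80 CPM (ratio 103.9, 75.9 to 146.4) and Clu at 1082 and 36.6 CPM (ratio 29.6, 27.5 to 31.8). Cdkn2a, also among the higher genes, was at 92.9 and 0.693 CPM (ratio 134.1, 81.1 to 240).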

How the data were processed

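Single-cell RNA-seq on the 10x Chromium system was analysed from 4 deposited matrices of UMI counts per gene and barcode. The submitters' processing notes name the build GRCm38 and the tools STARsolo, Cell Ranger and Seurat; which tool made the counts, its version and its use of strand are not given in the sources used here. The counts were taken as deposited, and the lowest cell totals of the iBC recipient's libraries were 3394 and 2910 UMIs. Of 30907 features 30843 were found in GENCODE vM21 for coordinates and 127 shared a symbol. Doublets called by Scrublet (9 donor-derived, 44 endogenous cells, scanpy 1.11.5) were left out of gates and kept in whole libraries. Gates, CPM, differences, intervals (exact Poisson for CPM ratios, Clopper-Pearson for shares; scipy 1.17.1) and thinning to 4000 UMIs, which left out at most 18 cells of a gate, were computed in Python 3.11.15 and tested on simulated data. UMIs of 1 cell are not independent samples of a condition. Members, lists and families were chosen with earlier results of these data known. Named genes were the 10 highest and 10 lowest per comparison with at least 50 CPM and 50 UMIs and an interval bound of at least 1.5-fold, without markers and genes at under 10% of another gate's level, and genes at least 4-fold apart in all gates. Called members of 18 lists and 60 families could be named too, and other genes named were chosen after their values were seen. Promoters are from RefSeq. A control trachea named in the protocol was not analysed here. Other scalings, pseudocounts, level and cell filters, gate thresholds and doublet handling were tried.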

Additional observations from a re-analysis of the deposited data

Results flagged for a closer look

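A raised chromosome 5 RNA share, at least 1.25 times the endogenous median, was found in 24.8% of gated donor-derived cells and in 0.533% of endogenous cells. This is a measure per cell, which the gene comparisons do not give. It was higher in the basal gate (30.4%) than in the ciliated gate (11.9%), and it was 0 in both libraries of the primary recipient. A lowered chromosome 8 share, at most 0.75 times the endogenous median, marked 4.68% of the donor-derived cells against 0.237% of the endogenous ones. Kdm5d stood at 0.559 CPM in the donor-derived library and at 14.6 to 18.7 CPM in the other 3, although it lies outside the genes compared because of its low level. What underlies these values was not tested.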

How the results depend on the processing

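No paired analysis was possible because each group has 1 library. The counts of called genes depended most on the level asked for. With at least 50 CPM they were 80 higher and 126 lower (whole libraries), 113 and 118 (basal gate), 95 and 101 (secretory gate), and 110 and 203 (ciliated gate). With a pseudocount of 20 CPM they were 86 and 151 (whole libraries), 121 higher (basal), 99 and 151 (secretory), and 106 and 225 (ciliated). With at least 5 CPM 478, 427 and 450 genes were lower in the whole libraries, basal gate and secretory gate. Without centring 379 genes were higher in the secretory gate and 58 in all 3 gates. Of 102 counts of genes under alternatives 82 stayed within 1.5 times. Of 716 values of named genes 715 kept their call, and Filip1l in the ciliated gate was no longer called with doubled gate thresholds (2.01 on the relative log2 scale), where its level was under the 20 CPM asked for. Of 933 list medians 6 changed sign: potassium channels in whole libraries (-0.29), serpins (-0.48) and interleukins and receptors (-0.27) of the secretory gate with at least 50 CPM, and mitochondrially encoded genes (0.044), claudins (0.078) and Klf and Sp factors (0.0050) of the secretory gate without centring. Doubled thresholds gave basal and secretory shares of 37.6% and 28.7% of donor-derived cells and a ciliated share of 17.8% of endogenous cells; halved ones gave 39.1% and 24.5% of endogenous cells in the basal and secretory gates. The share of donor-derived cells with a raised chromosome 5 share, with alternatives chosen after seeing the data, was 36.7% with all genes measured in all gates (6.28% of endogenous cells) and 21.2% with cells of at least 10000 UMIs (0.131%). The cause of these changes was not tested. With 1 mouse and 1 library a side, no difference here has a replicate.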
